A study of Mus musculus with 2 samples.

Results

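The collagen gene family was taken as every gene whose symbol reads Col, a number, a and a number, which gave 44 of the 32285 genes listed. By the structure of the protein they comprised 11 fibrillar chains, 9 FACIT chains (fibril-associated collagens with interrupted triple helices), 9 network-forming chains, 6 beaded-filament chains, 4 transmembrane chains and 5 others. Their transcripts were counted as UMIs (unique transcript molecules) in single cells dissociated from the enthesis of the Achilles tendon (the attachment of tendon to heel bone) of SKG mice. SKG is an arthritis-prone strain with a mutation in the T cell signalling gene Zap70, and it was the strain of both groups. One group was held in tail suspension, which takes the load off the hindlimbs, and the other was not suspended. Each group gave 1 library. The number of animals pooled, their age, their sex, the length of suspension and any induction of arthritis are not given in the sources used here. With 1 library per group no difference could be tested, and each interval given is an exact 95% one for counting error alone.

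Collagens are proteins of 3 polypeptide chains wound into a triple helix. Fibrillar collagens pack into the banded fibrils that carry load in tendon, FACIT collagens sit on the surface of those fibrils, type IV and type VIII collagens form sheet-like networks such as basement membranes, and type VI collagen forms beaded filaments close to cells. Tendon is built mainly of type I collagen, a trimer of Col1a1 and Col1a2 chains, and its insertion into bone passes through a fibrocartilage that also holds type II collagen.

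Cells entered if 300 genes or more were detected and mitochondrial UMIs did not exceed 20%, 10947 without and 14483 with suspension, with median depths of 4758 and 8508 UMIs. Stromal cells were picked by a panel of matrix genes that holds no collagen gene and numbered 2116 and 6913. Their median depth ran the other way, at 24548.5 and 11978 UMIs. Mitochondrial UMIs were 3.83% and 3.28% of stromal UMIs, and the 8 leukocyte markers together stood at 206 and 133 CPM (the UMIs of a gene relative to all UMIs of the same cells, scaled to a fixed total) in stromal cells against 7890 and 7165 CPM in leukocyte-gated cells. All 44 collagen genes together made up 0.0573% and 0.0598% of UMIs in the leukocyte-gated cells, which serve as the background from free RNA. Of the 16-base cell barcodes, 47 occurred in both libraries, 4 of them in stromal cells of both.

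Stromal cells were then divided by fixed marker panels into 9 classes, named by the panel. Tendon-like cells numbered 470 and 690, adventitial-like cells 278 and 842, interstitial-like cells 77 and 635, Myoc-Sfrp4-like cells 108 and 825, inflammatory-like cells 656 and 730, and proliferating-like cells 102 and 385. These 6 classes had at least 50 cells in each library and were compared. Sheath or lining-like (46 and 822), mineralising-like (6 and 115) and mural-like cells (36 and 128) were described without a comparison, and 337 and 1741 stromal cells fitted no panel. The panels are ranges of a score and not types: 176 and 651 cells lay within 0.1 of the score limit. The panel of a class had the highest median over its cells in 14 of the 18 pairs of class and library. Proliferating-like and mineralising-like cells were the exceptions. Cells were assigned by scores of these same panels, so this count largely follows from the assignment and is no separate check of the classes. Of the tenocyte genes of the panel that picked them, tendon-like cells carried Thbs4, Comp and Fmod in at least 96.4% of cells of either library. Tnmd was found in 48.7% and 75.5% of these cells, and Mkx in 33.2% and 31.0%. The lining panel led by Prg4 (lubricin) had medians of 2.01 and 83.1 counts per 10000 in tendon-like cells. Its median was higher with suspension in the other compared classes too, such as adventitial-like (3.99 and 16.8), interstitial-like (0.888 and 9.06) and Myoc-Sfrp4-like cells (3.42 and 23.4). CPM is on another scale than counts per 10000. In CPM the panel stood at 75.2 and 618 in leukocyte-gated cells and at 5570 and 30427 in all stromal cells. What the lining transcripts add to the differences in the compared classes was not tested.

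Collagen transcripts took up a smaller share of the stromal RNA with tail suspension. They were 5.34% of all stromal UMIs without suspension (2994928 UMIs) and 2.90% with it (2969466 UMIs), a log2 ratio of -0.88. The share was lower in all 9 classes. Without suspension it was highest in tendon-like cells among the compared classes (7.43%) and lowest in proliferating-like cells (3.78%). With suspension tendon-like cells still had the highest share of these 6 (4.59%), and Myoc-Sfrp4-like cells the lowest (1.95%). Outside them, the few mineralising-like cells had 9.34% and 3.21%, and sheath or lining-like cells 2.40% and 1.56%. Among the compared classes the difference was widest in interstitial-like cells, at 5.26% and 2.18% (log2 ratio -1.27), and narrowest in proliferating-like cells, at 3.78% and 3.05% (-0.31).

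**Figure D1:**
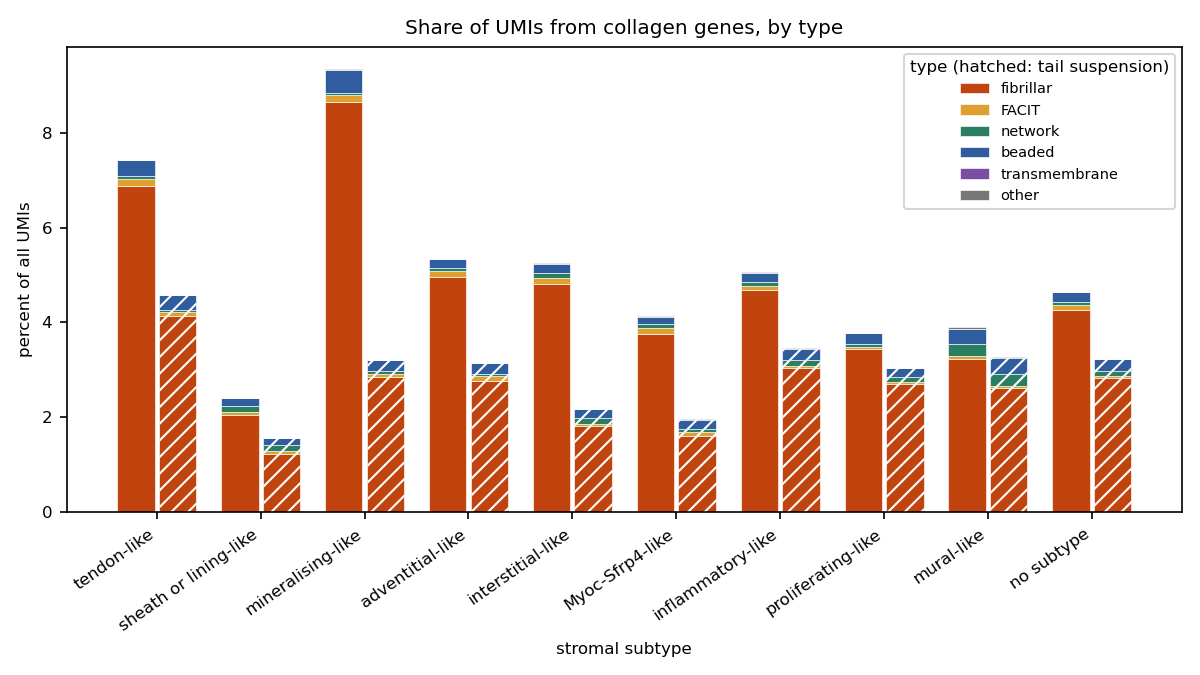
Percent of all UMIs that came from collagen genes (vertical axis) in each marker-defined stromal class (horizontal axis), stacked by collagen type, with plain bars for non-tail suspension and hatched bars for tail suspension. The hatched bar is the lower of the pair in every class, from 7.43% against 4.59% in tendon-like cells to 3.91% against 3.27% in mural-like cells, and fibrillar chains fill most of every bar.

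The makeup of the collagen transcripts also differed. Fibrillar chains were 92.2% of collagen UMIs without suspension and 86.7% with it. Beaded chains were 4.19% and 7.37%, and network chains 1.51% and 3.40%. As a share of all UMIs, fibrillar chains were 4.93% and 2.51%, and most of the smaller total lay in them. FACIT chains were also lower (0.0997% and 0.0675%), and beaded chains were nearly level (0.224% and 0.214%). Network chains were higher over all stromal cells (0.0806% and 0.0986%), but not in every class. Their log2 ratio was -0.42 in tendon-like, -0.36 in adventitial-like and -0.03 in Myoc-Sfrp4-like cells. It was 0.25 in interstitial-like, 0.54 in inflammatory-like and 0.28 in proliferating-like cells. What the mix of classes adds to the pooled shares was not tested.

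Stromal cells of the 2 libraries differed in depth, so the collagen share was also read within bands of depth. Under 5000 UMIs per cell it was 3.25% and 2.28%, from 5000 to 10000 it was 5.14% and 2.17%, and from 10000 to 20000 it was 4.64% and 2.68%. In cells of 20000 to 40000 UMIs it was 5.76% and 3.09%, and above that 4.94% and 3.49%. The share was lower with suspension in each of the 5 bands.

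Of the 44 genes, 40 had at least 20 UMIs in stromal cells over both libraries and count as measured. The other 4 were Col19a1, with 0 UMIs in both libraries, and Col4a6, Col6a4 and Col25a1. Among the 40, 23 were lower and 17 higher with suspension, with a median log2 ratio of -0.53 against 0.07 over all 16631 measured genes. By a 2-fold limit 11 members (27.5%) were lower, where 5.63% of all measured genes were, and 7 members (17.5%) were higher, where 10.4% of all genes were. The 11 were Col1a1, Col2a1, Col11a1 and Col11a2 of the fibrillar type, the 3 type IX chains, Col8a1 and Col8a2 of the network type, Col23a1 and Col18a1. Of these, Col2a1, Col11a2 and the type IX chains rested on few cells. Their 10 richest cells held from 78.5% to 93.6% of the stromal UMIs without suspension. The 7 higher ones were all rare transcripts. Col6a5 was the only one of them above 3 CPM in either library, and the others, Col4a3, Col4a4, Col7a1, Col10a1, Col13a1 and Col26a1, had 20 to 218 UMIs in the tail suspension library. Col10a1 rested on 3 cells there, the richest holding 134 of its 136 UMIs.

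**Figure D2:**
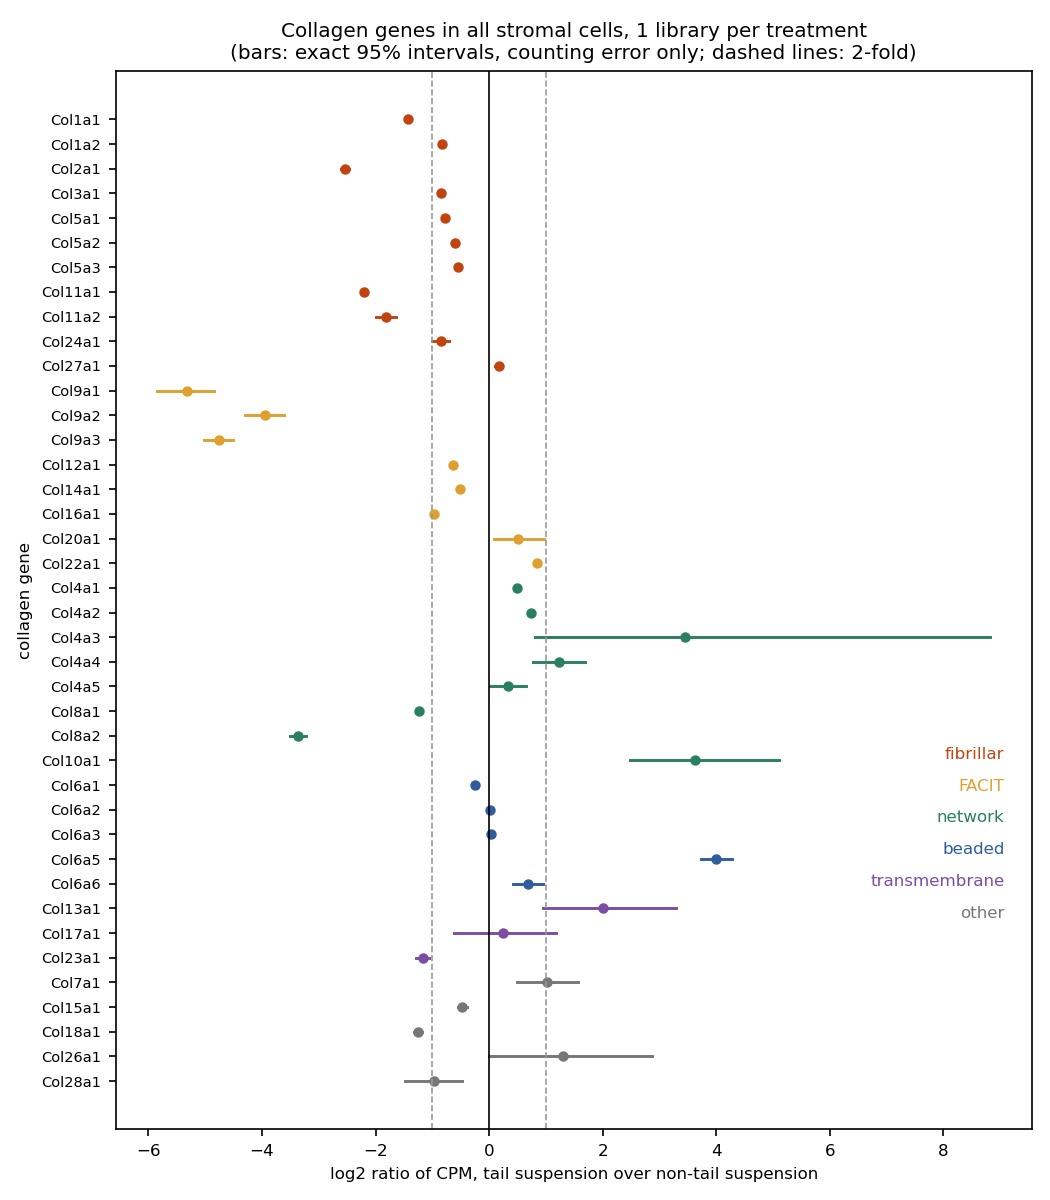
Log2 ratio of CPM in all stromal cells, tail suspension over non-tail suspension (horizontal axis), for the 40 measured collagen genes (vertical axis), coloured by type; points are ratios, bars exact 95% intervals for counting error, dashed lines 2-fold. Of the 11 fibrillar genes 10 lie left of 0, and the wide bars on the right belong to genes with few UMIs, such as Col4a3.

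Fibrillar chains were lower with suspension almost throughout. In all stromal cells 10 of the 11 were lower, with a median log2 ratio of -0.84, and Col27a1 alone was higher (60.8 and 68.3 CPM, 0.17). Col1a1, the α1 chain of type I collagen, stood at 14168 CPM (14137 to 14200) without suspension and at 5280 CPM (5266 to 5294) with it, 2.68-fold lower. Its partner Col1a2 stood at 12581 and 7086 CPM, 1.78-fold lower. Col3a1, the chain of the homotrimeric type III collagen of loose and healing tissue, stood at 18667 and 10423 CPM, 1.79-fold lower. These 3 genes held most collagen UMIs in both libraries, and each was lower in all 6 compared classes. In proliferating-like cells the log2 ratio of Col1a2 was -0.19, and 0.007 with the whole-transcript GC trend removed.

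The size of the type I and III differences varied with the class. Col1a1 stood at 22531 and 11461 CPM in tendon-like cells (log2 ratio -0.98), and the ratio was -1.27 in adventitial-like and -1.13 in inflammatory-like cells. It was farther from 0 in interstitial-like (-1.80) and Myoc-Sfrp4-like cells (-1.70), and nearest in proliferating-like cells (-0.81). Col3a1 kept nearly the same order, with -1.49 in interstitial-like and -1.33 in Myoc-Sfrp4-like cells against -0.72 in tendon-like and -0.19 in proliferating-like cells. With classes from clusters the Myoc-Sfrp4-like values were nearer to 0, at -0.92 for Col1a1 and -0.43 for Col3a1.

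The minor fibrillar chains of type V, which join type I fibrils and set their diameter, were also lower. Col5a1 stood at 943 and 553 CPM (log2 ratio -0.77), and Col5a2 at 2102 and 1385 CPM (-0.60). Both were lower in all 6 compared classes. Col5a3 stood at 358 and 246 CPM and was lower in 5, the exception being adventitial-like cells with 233 and 246 CPM.

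Type XI chains, which take the place of type V in cartilage fibrils and are made by young tenocytes, differed more. Col11a1 stood at 227 CPM without suspension and 49.1 CPM with it, 4.63-fold lower, and it was lower in all 6 compared classes, by log2 ratios from -3.26 to -0.92. Tendon-like cells held 66.1% and 50.9% of its stromal UMIs and had 702 and 325 CPM (-1.11). Adventitial-like cells had 88.0 and 11.1 CPM (-2.99), and interstitial-like cells 54.6 and 5.68 CPM (-3.26), a value that was -0.31 with classes from clusters. In Myoc-Sfrp4-like cells it stood at 73.1 and 38.8 CPM (-0.92), the ratio nearest to 0. Col24a1, a fibrillar chain of developing bone, was lower in all 6 classes as well, at 14.2 and 7.87 CPM over all stromal cells.

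Col2a1, the cartilage fibrillar chain, rested on few cells. It stood at 128 and 22.0 CPM, but the 10 richest cells held 91.8% of its stromal UMIs without suspension and 72.2% with it. In tendon-like cells it had 2453 and 7 UMIs, a log2 ratio of -7.85. In the few mineralising-like cells it had 582 UMIs in 6 cells and 1416 UMIs in 115 cells, and in inflammatory-like cells it stood at 20.3 and 8.31 CPM (-1.29). Col11a2, its partner in cartilage, behaved likewise at 13.6 and 3.87 CPM, with 78.5% and 51.0% of UMIs in the 10 richest cells. What these few cells add to the differences in other members was not tested.

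For the fibrillar gene with most UMIs, for the fibrillar gene with the widest difference that all 6 classes held in 1 direction, and for the beaded gene that went the other way, the 250 bases before the RefSeq start on GRCm38.p6 are shown 5′ to 3′ along the gene's strand, none of them in an exon of the annotation used. Capitals mark 3 promoter motifs searched on both strands. The TATA box was searched as TATAAA. For the GC box the letters were GGGCGG. For the CCAAT box they were the letters of its name, which read ATTGG when the match lies on the opposite strand. The Col3a1 window is chr1:45311288-45311537 (plus strand), the Col11a1 window chr3:114030290-114030539 (plus strand) and the Col6a5 window chr9:105960644-105960893 (minus strand).
Col3a1: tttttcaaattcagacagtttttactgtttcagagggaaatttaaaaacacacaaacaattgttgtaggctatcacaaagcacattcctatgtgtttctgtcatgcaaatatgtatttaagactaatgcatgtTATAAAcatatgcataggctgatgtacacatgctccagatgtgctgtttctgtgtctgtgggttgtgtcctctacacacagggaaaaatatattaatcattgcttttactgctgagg
Col11a1: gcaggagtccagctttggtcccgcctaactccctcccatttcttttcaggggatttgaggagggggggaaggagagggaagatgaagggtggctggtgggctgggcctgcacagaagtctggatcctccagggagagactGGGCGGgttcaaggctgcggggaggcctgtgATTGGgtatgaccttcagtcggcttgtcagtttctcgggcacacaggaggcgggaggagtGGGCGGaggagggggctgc
Col6a5: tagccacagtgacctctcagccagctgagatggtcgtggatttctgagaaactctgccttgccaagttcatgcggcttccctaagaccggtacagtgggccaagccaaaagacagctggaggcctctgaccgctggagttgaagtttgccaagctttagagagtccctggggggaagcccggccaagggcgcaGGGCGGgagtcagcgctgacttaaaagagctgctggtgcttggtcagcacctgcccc

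The 3 windows differ in these motifs. Col3a1 has 1 TATA box and neither of the others, Col11a1 has 2 GC boxes and 1 CCAAT box, and Col6a5 has 1 GC box. Promoter windows were found for 35 of the 44 members, and the GC box occurred in 21, the CCAAT box in 12 and the TATA box in 5 of them. Among all 32851 windows of that length the shares were 32.74%, 33.85% and 12.37%. A match says only that these letters are in the window.

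The 2 chains of type I collagen did not differ by the same factor. There were 1.13 Col1a1 UMIs for each Col1a2 UMI without suspension and 0.745 with it. The ratio was lower with suspension in all 9 classes. Without suspension it ran from 0.933 in interstitial-like cells (0.576 with suspension) to 1.49 in sheath or lining-like cells (0.957 with suspension). It was 0.937 and 0.529 in Myoc-Sfrp4-like, 0.962 and 0.625 in adventitial-like, 1.07 and 0.780 in tendon-like and 1.28 and 0.833 in proliferating-like cells. Free collagen RNA in leukocyte-gated cells showed the lower ratio too, at 1.18 (1.14 to 1.23) and 0.946 (0.896 to 0.998). Among cells with at least 20 UMIs of the pair, the median share of Col1a1 in the pair was 52.3% (quartiles 47.1% and 57.7%) in 2002 cells and 38.2% (29.4% and 47.0%) in 5286 cells.

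**Figure D3:**
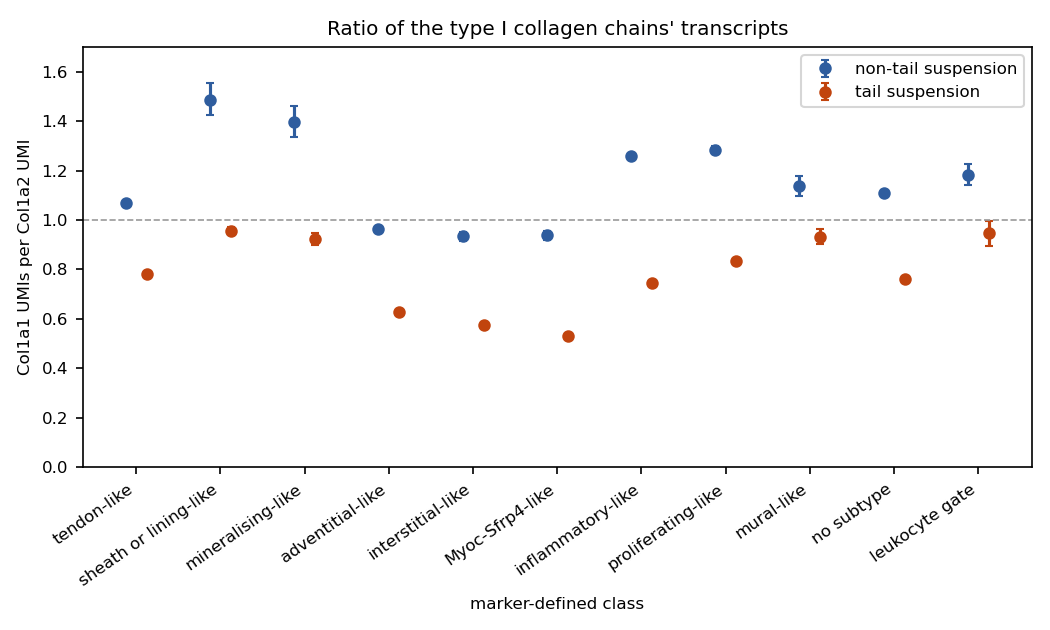
UMIs of Col1a1 per UMI of Col1a2 (vertical axis, from 0) in each marker-defined class (horizontal axis), blue for non-tail suspension and orange for tail suspension, with exact 95% intervals for counting error. The orange point is lower in every class, and the leukocyte gate, which shows free RNA, has the same order at 1.18 and 0.946.

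Base composition of the transcripts moved with the ratios across all genes. Over genes with at least 100 stromal UMIs, the median log2 ratio was 0.20 in the fifth with the lowest GC content and -0.18 in the fifth with the highest. Col1a1 has 58.9% GC in its longest transcript and 48.0% in the last 1000 bases, and Col1a2 has 55.7% and 38.1%. The log2 ratio of Col1a1 minus that of Col1a2 was -0.60 over all stromal cells. It was -0.52 after the median of genes of like whole-transcript GC was subtracted, and -0.37 when the GC of the last 1000 bases was used. In tendon-like cells the 3 values were -0.45, -0.42 and -0.14. The total collagen difference was -0.88 before, and -0.78 and -1.02 after these 2 subtractions, which were chosen after seeing the data.

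Other pairs of partner chains were compared in the same way. There were 1.32 and 1.97 Col3a1 UMIs per Col1a1 UMI, 2.23 and 2.51 Col5a2 UMIs per Col5a1 UMI, and 0.241 and 0.0888 Col11a1 UMIs per Col5a1 UMI. The Col3a1 to Col1a1 ratio was higher with suspension in all 9 classes, and in tendon-like cells it was 0.889 and 1.06. The 2 chains of type IV collagen, Col4a1 and Col4a2, had a ratio of 1.64 and 1.38, and Col6a1 to Col6a2 one of 1.49 and 1.25.

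FACIT chains fell into 2 sets by level. Col12a1, Col14a1 and Col16a1, which bind fibril surfaces in tendon and other dense tissue, were present in all classes. Col14a1 stood at 534 and 374 CPM (log2 ratio -0.51), Col12a1 at 205 and 131 CPM (-0.64), and Col16a1 at 142 and 73.0 CPM (-0.97). Col16a1 was lower in all 6 compared classes. Col14a1 was not: it was 2-fold or more lower in tendon-like (698 and 270 CPM, -1.37) and interstitial-like cells (1162 and 424 CPM, -1.46) and higher in proliferating-like cells (157 and 256 CPM, 0.70). Col12a1 was lower in 3 classes and higher in 3, within log2 ratios of -0.34 and 0.34, and with the compared classes given equal weight its ratio was 0.02. In these pooled values, fewer cells of a class and less RNA per cell cannot be told apart.

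Col22a1, the FACIT chain of tissue junctions such as that of muscle and tendon, was highest in the lining. Sheath or lining-like cells had 619 and 391 CPM and held 72.7% of its UMIs with suspension. Over all stromal cells it stood at 51.5 and 92.3 CPM (0.84), while with equal weight of the compared classes it was -0.05, and the lining class held 46 and 822 cells. In adventitial-like cells it stood at 33.5 and 6.31 CPM (-2.41), a ratio that turned to 1.57 when classes came from clusters and was -0.86 in cells of 5000 to 20000 UMIs. The type IX chains Col9a1, Col9a2 and Col9a3, which decorate cartilage fibrils, stood at 14.0, 12.0 and 36.8 CPM without suspension and at 0.351, 0.781 and 1.36 CPM with it. The 10 richest cells held from 79.9% to 93.6% of their UMIs without suspension. In tendon-like cells Col9a3 stood at 48.4 and 0.381 CPM (-6.99). The rest of the type was Col20a1, at 1.09 and 1.55 CPM in stromal cells, of which the leukocyte-gated level was 88.4% and 63.2%, and the undetected Col19a1.

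**Figure D4:**
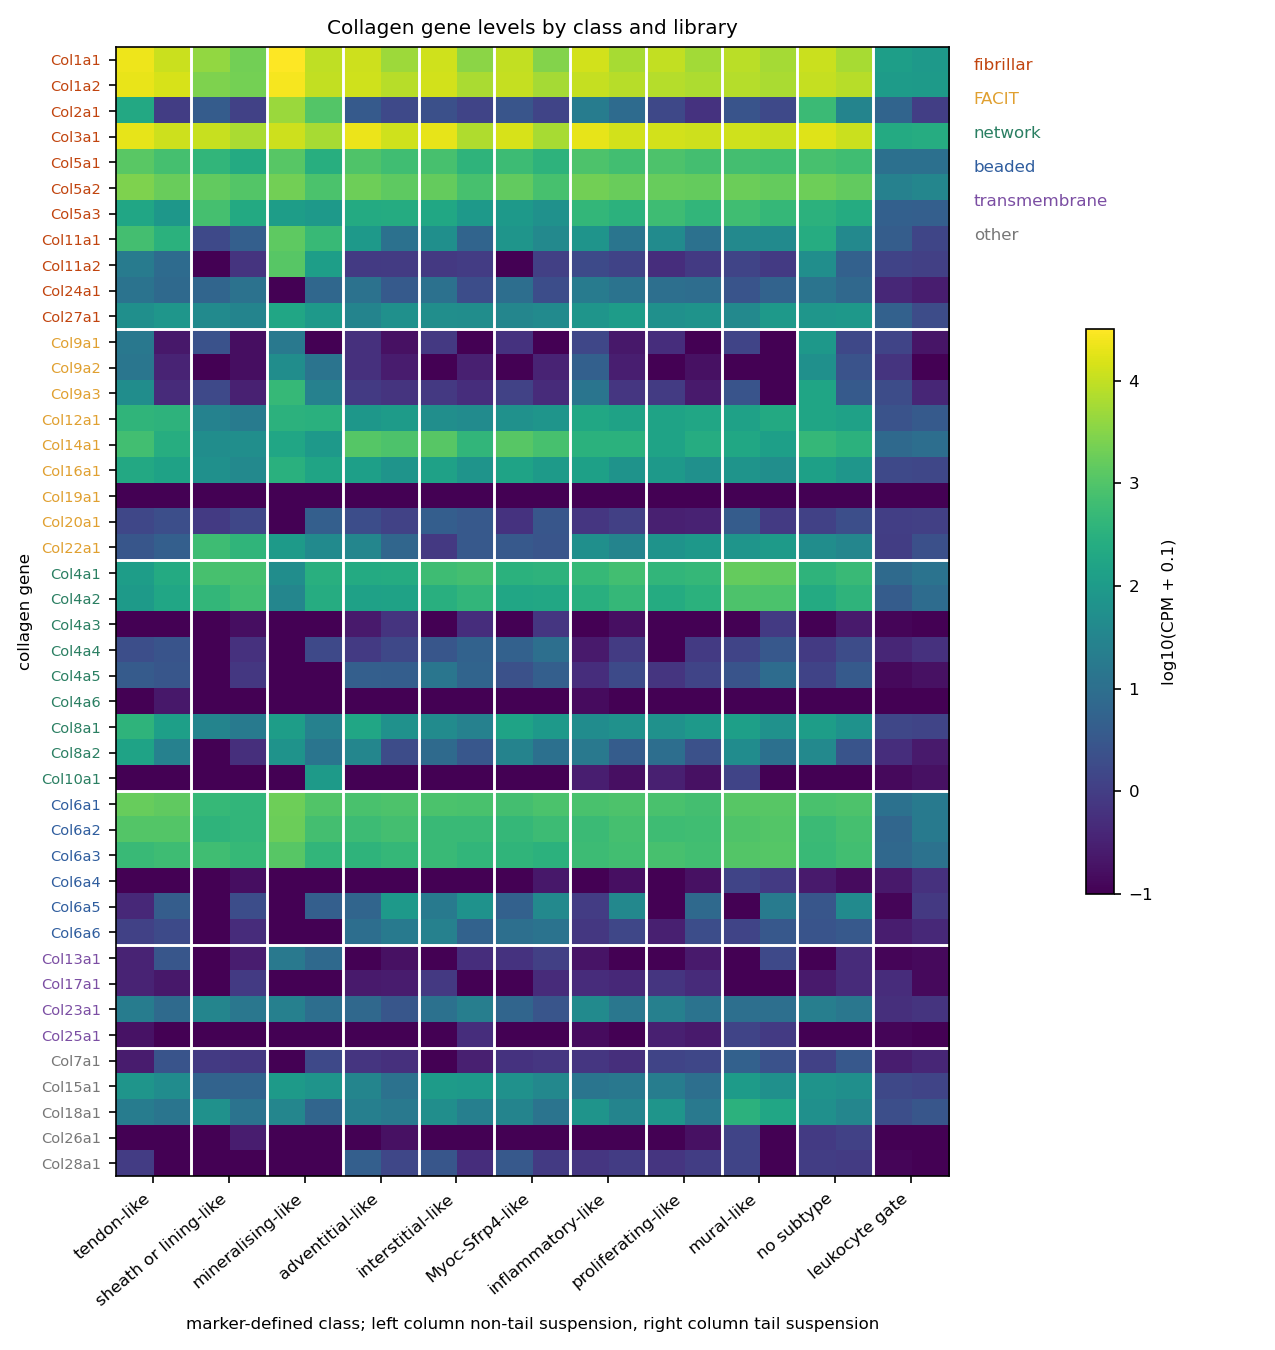
Level of each of the 44 collagen genes (vertical axis, names coloured by type) in every marker-defined class (horizontal axis; left column of each pair non-tail suspension, right column tail suspension), as log10 of CPM plus 0.1. Col1a1, Col1a2 and Col3a1 are the brightest rows in all stromal classes, Col22a1 is brightest in sheath or lining-like cells, Col2a1 in mineralising-like cells, and Col4a1 is brightest in mural-like cells among the stromal classes.

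Network chains went in both directions. The basement membrane chains Col4a1 and Col4a2 were higher with suspension, at 375 and 529 CPM (log2 ratio 0.49) and at 228 and 383 CPM (0.75), and were higher in all 6 compared classes. In tendon-like cells Col4a1 stood at 116 and 228 CPM (0.97) and Col4a2 at 97.8 and 183 CPM (0.90). Adventitial-like cells differed little, with 0.08 and 0.09. Among the stromal classes their level was highest in mural-like cells (1561 and 1431 CPM of Col4a1). The 6 endothelial markers together stood at 9.58 and 9.55 CPM in all stromal cells and at 213 and 14.8 CPM in mural-like cells; their part in the mural-like level was not tested. Col4a5 stood at 2.14 and 2.69 CPM and Col4a4 at 0.910 and 2.13 CPM, while Col4a3 and Col4a6 had at most 20 UMIs in either library.

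The genes of these network chains lie in pairs. In the GENCODE annotation of GRCm38, Col4a1 and Col4a2 lie head to head on chromosome 8 and overlap by 22 bases. Col4a3 and Col4a4 lie head to head on chromosome 1 with 71 bases between them, and Col4a5 and Col4a6 on chromosome X with 1308 bases. Members of the first pair had log2 ratios of the same sign in all 6 classes.

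Type VIII collagen, a short-chain network of subendothelial and corneal matrix, was lower. Col8a2 stood at 51.2 CPM (49.4 to 53.1) without suspension and 4.96 CPM (4.54 to 5.41) with it, 10.3-fold lower, and it was at least 2-fold lower in all 6 compared classes. Tendon-like cells held 66.3% and 40.2% of its UMIs and had 159 and 25.9 CPM (-2.62). In adventitial-like cells it stood at 34.0 and 1.84 CPM (-4.21), and in Myoc-Sfrp4-like cells at 28.3 and 10.8 CPM (-1.39). In the latter the ratio stayed negative but was under 2-fold with thinned cells (-0.56), without cells of uncertain class (-0.97) and in clusters (-0.37). Col8a1 stood at 148 and 63.0 CPM (-1.23, or -0.63 with equal weight of the compared classes) and was lower in 4 of the 6 classes. It was 385 and 129 CPM in tendon-like cells, but 47.1 and 60.2 CPM in inflammatory-like and 60.3 and 89.8 CPM in proliferating-like cells (0.57). Col10a1, the chain of hypertrophic cartilage, had 6 and 136 UMIs, and mineralising-like cells held 98.5% of the latter. These 136 UMIs lay in 3 cells, and the richest cell held 134 of them.

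Of the beaded chains of type VI collagen, the 3 abundant ones, Col6a1, Col6a2 and Col6a3, differed little. Col6a1 stood at 1000.5 and 844 CPM (log2 ratio -0.24), Col6a2 at 670 and 676 CPM (0.01) and Col6a3 at 566 and 579 CPM (0.03). The 2 last ratios changed sign with the scaling, to -0.06 and -0.04 by median-of-ratios scaling, and that of Col6a1 was 0.01 with equal weight of the compared classes. Within classes the 3 chains lay between -0.40 and 0.42, and Col6a2 was higher in all 6. Col6a1 and Col6a2 lie on 1 strand of chromosome 10, and Col6a3 lies on chromosome 1.

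Col6a5, a longer α chain that can take the place of Col6a3 in the trimer, was the member with the widest difference in the other direction. It had 115 UMIs in the non-tail suspension library and 3355 in the other, which is 2.05 CPM (1.69 to 2.46) against 32.8 CPM (31.7 to 33.9), 15.96-fold higher. It was at least 2-fold higher in all 6 compared classes. Adventitial-like cells had the most with suspension, at 6.21 and 90.0 CPM (3.86), then interstitial-like cells at 17.5 and 62.9 CPM (1.85), where the ratio was 0.23 with cells thinned to equal depth and so not past 2-fold. Inflammatory-like cells stood at 0.872 and 36.4 CPM (5.39), Myoc-Sfrp4-like cells at 4.99 and 38.4 CPM (2.95), and tendon-like cells at 0.334 and 4.19 CPM (3.65). Proliferating-like cells had 0 and 96 UMIs, 11.9-fold higher with the 0 set to 3 UMIs, a value that depends on this setting. Leukocyte-gated cells had 0.0189 and 0.727 CPM, below every one of the classes with suspension. The neighbouring Col6a6, 27917 bases away on the same strand of chromosome 9, stood at 2.94 and 4.72 CPM and went from -2.34 in interstitial-like to 3.21 in proliferating-like cells on 63 and 26 UMIs over both libraries.

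The transmembrane collagens, single-pass proteins with a collagen-like outer part, were scarce. Col23a1 was the only one above 1 CPM, at 26.8 and 11.9 CPM (log2 ratio -1.17). It was at least 2-fold lower in 5 classes, such as inflammatory-like cells with 42.0 and 14.9 CPM (-1.50). In interstitial-like cells it was higher, at 11.2 and 22.7 CPM (1.02) on 16 and 108 UMIs, and the sign turned with cells thinned to equal depth (-0.92), with a mean over cells (-0.37) and with clusters (-0.89). Col13a1 had 8 and 59 UMIs, and the leukocyte-gated level of Col17a1 was 131% of the stromal level without suspension.

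Among the remaining members, Col15a1 and Col18a1, whose proteins sit at basement membranes and release anti-angiogenic fragments, stood at 40.5 and 29.2 CPM (-0.47) and at 55.2 and 23.2 CPM (-1.25). Col18a1 was lower in all 6 compared classes, most in proliferating-like cells with 75.4 and 16.6 CPM (-2.18), where Col15a1 had a log2 ratio of -1.08. The latter was -0.22 with thinned cells, -0.09 in clusters and -0.88 with the whole-transcript GC trend removed, and the pooled value of Col18a1 was -0.83 with thinned cells. Col18a1 overlaps Slc19a1 in the annotation and Col10a1 overlaps Nt5dc1, and whether counting used the strand is not given in the sources used here, so reads could be shared between these genes. The anchoring-fibril gene Col7a1 had 38 and 140 UMIs, Col26a1 6 and 27, and Col28a1 72 and 67.

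Counted class by class, more members were lower than higher. In tendon-like cells 11 of 35 measured members were at least 2-fold lower and 3 higher, where 6.64% and 9.46% of all measured genes were. In adventitial-like cells 10 of 30 were lower and 1 higher, beside 5.55% and 7.62%. In interstitial-like cells 11 of 27 were lower and 2 higher, beside 5.49% and 8.93%. In each of these 3 classes the share of members on the lower side was above that of all genes. The 11 of tendon-like cells include Col2a1, Col11a2 and the 3 type IX chains, which rested on few cells. Without suspension Col9a3 was found in 13 of 470 tendon-like cells. Col2a1 was also among the 10 of adventitial-like cells. What such genes add to these shares was not tested.

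Myoc-Sfrp4-like cells had 6 of 28 members at least 2-fold lower and 4 higher, beside 6.05% and 8.45% of all genes. Inflammatory-like cells had 9 of 34 lower and 3 higher, beside 6.79% and 6.89%. Proliferating-like cells had 5 of 26 lower and 2 higher, beside 5.48% and 7.21%. The lower side was above the background share in these classes too. Col2a1 and the 3 type IX chains, which rested on few cells, were among the 9 of inflammatory-like cells. The median log2 ratio of measured members ran from -0.99 in interstitial-like to -0.18 in proliferating-like cells, against medians between -0.04 and 0.07 over all measured genes of the 6 classes.

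Of 24 members measured in every compared class, 10 were lower in all 6 and 4 were higher in all 6. Among all 10371 genes measured in every compared class, 21.0% were lower in all 6 and 22.1% were higher in all 6, so the 4 members higher throughout are not above that share. The 10 were Col1a1, Col1a2, Col3a1, Col5a1, Col5a2, Col11a1 and Col24a1 of the fibrillar type, with Col16a1, Col8a2 and Col18a1. With the whole-transcript GC trend removed, Col1a2 was at 0.007 in proliferating-like cells. The 4 were Col4a1, Col4a2, Col6a2 and Col6a5. Col27a1 was higher in 5 classes, by up to 0.94 in adventitial-like cells, where Col12a1 had 0.34. Its values were 0.50 in tendon-like, 0.60 in inflammatory-like and 0.35 in Myoc-Sfrp4-like cells. Both adventitial values had the other sign with classes from clusters, -0.40 and -1.44, Col12a1 also in cells of 5000 to 20000 UMIs (-0.055). The Myoc-Sfrp4-like value of Col27a1 had the other sign with a score limit of 1.0 (-0.15).

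**Figure D5:**
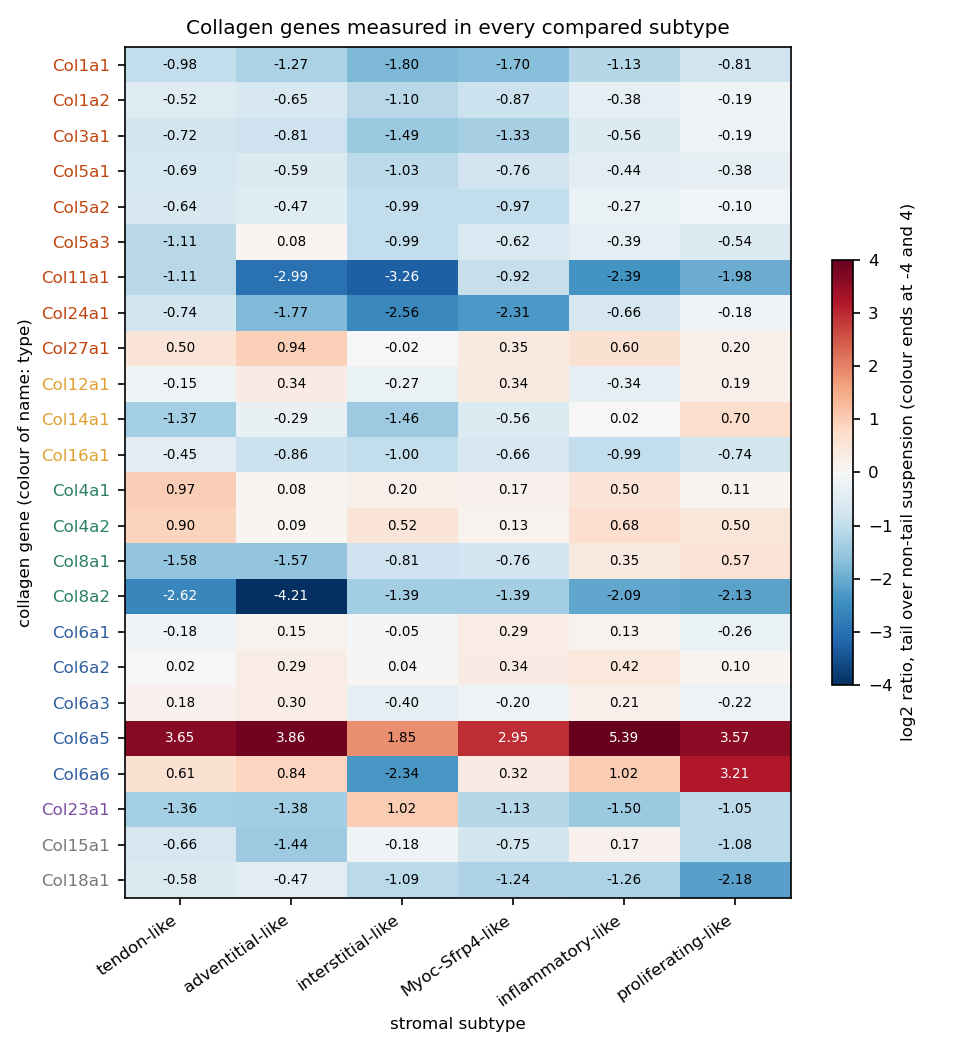
Log2 ratio of CPM, tail suspension over non-tail suspension, for the 24 collagen genes measured in each of the 6 compared classes (vertical axis, names coloured by type; horizontal axis, class), with the value printed in each square; the value of Col6a5 in proliferating-like cells is a lower bound set with 3 UMIs. The rows of Col1a1, Col3a1, Col11a1 and Col8a2 are blue in every class and the row of Col6a5 is red in every class.

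Collagen genes tended to be high in the same cells in both libraries. Every stromal cell was thinned to 2000 UMIs (2039 and 6377 cells, with 77 and 536 shallower ones left out). Pearson's r over cells was taken on the logarithm of the thinned count plus 1. It was 0.83 and 0.79 for Col1a1 with Col1a2, and 0.66 and 0.73 for Col1a1 with Col3a1. It was 0.40 and 0.44 for Col6a1 with Col6a2. Col1a1 with Col6a3 had 0.13 and 0.34. Cells of 1 library share its free RNA and its mix of classes, so these are descriptions.

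Genes that make, export, process and bind collagen were followed in a list of 44, all measured in stromal cells. Of these 27 were lower and 17 higher, and 3 and 3 were past 2-fold, with a median log2 ratio of -0.19. Among all measured genes 5.63% were 2-fold lower and 10.4% higher, so the 3 and 3 do not stand above that background. Modification and folding in the endoplasmic reticulum had 14 of 19 lower and a median of -0.49, against 0.07 over all measured genes. Serpinh1, the collagen chaperone HSP47, stood at 1325 and 494 CPM (-1.42). P4ha3, a prolyl 4-hydroxylase subunit, stood at 141 and 49.5 CPM (-1.51), and P3h3, a protein of the lysyl hydroxylase complex, at 162 and 72.7 CPM (-1.15). Each of these 3 was lower in all 6 compared classes. P4hb, the shared β subunit of prolyl 4-hydroxylase and a general disulphide isomerase, was higher in all 6, at 543 and 697 CPM over all stromal cells (0.36).

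The steps outside the endoplasmic reticulum were mixed. The counts by sign are descriptions, as no share by sign was counted for all measured genes, whose median log2 ratio was 0.07. Step medians were 0.25 in export, -0.19 in processing and cross-linking and 0.15 among receptors. In export, 3 of 4 genes were higher, among them Sec23a of the vesicle coat (0.44). In processing and cross-linking, 8 of 12 were lower, among them Bmp1, the C-proteinase, at 371 and 264 CPM (-0.50), while the cross-linking enzyme Lox stood at 1218 and 1109 CPM (-0.14). Pcolce2, an enhancer of C-proteinase, was higher in all 6 classes and stood at 57.5 and 210.2 CPM (1.87). Among receptors, 5 of 9 were higher, among them the receptor tyrosine kinase Ddr2 at 99.7 and 142 CPM (0.51). The integrin chain Itga2 stood at 2.82 and 6.15 CPM (1.13), and the uptake receptor Mrc2 at 164 and 102 CPM (-0.68). Of 38 list members measured in every compared class, 16 were lower in all 6 and 7 higher in all 6, beside the 21.0% and 22.1% of all genes given above.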

How the data were processed

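Single-cell RNA of 1 library without and 1 with tail suspension was analysed. The deposited values are UMI counts per gene and barcode, whole numbers without normalization; per the submitters' processing notes Cell Ranger 5.0.1 and GRCm38 were used, while the matrix header gives software version 3.1.0. Whether the libraries were brought to equal depth is not given in the sources used here.

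UMIs were summed per library and class and expressed as CPM in Python 3.11.15 with numpy 2.4.6 and scipy 1.17.1; cells are not replicates, so nothing was tested. Intervals are exact (Poisson for a count, conditional binomial for a ratio of 2 counts); the ratio code was tested on simulated data. A count of 0 was set to 3 UMIs in a ratio. A stromal cell had at least 5 UMIs of at least 3 pan-stromal markers, and leukocyte, endothelial, keratinocyte and Schwann markers at 10% of that or less each. A class needed a mean standardised score above 0.5 and 2 detected markers. The endothelial, keratinocyte and Schwann gates caught at most 2 cells in a library. Doublet calls were kept: Scrublet (scanpy 1.11.5) called 0 cells without suspension, so it did not work there, and 492 (3.40%) with it. Named members had 50 CPM or more in stromal cells of either library, or were among the 3 largest ratios in each direction in a class (at least 100 UMIs and 20 CPM); others were named to complete a type, or after their values were seen. All 44 members matched GENCODE. Members, lists and classes were chosen with earlier results of these data known. Alternatives covered scaling, thinning, filters, doublets, score limits, free RNA, clusters, depth and GC.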

Additional observations from a re-analysis of the deposited data

Results flagged for a closer look

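Members whose log2 ratios lay past 2-fold on opposite sides in different classes were Col4a5, with -1.25 in interstitial-like and 1.91 in inflammatory-like cells, and Col6a6, with -2.34 in interstitial-like and 3.21 in proliferating-like cells. Col23a1 was at -1.36 in tendon-like, -1.38 in adventitial-like, -1.50 in inflammatory-like and -1.05 in proliferating-like cells and at 1.02 in interstitial-like cells. With 1 library per group none of these differences between classes was tested, and Col4a5 had 48 or fewer UMIs in each class named.

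Collagen transcripts outside the stromal and leukocyte gates, in cells that no comparison used, were above the level of both gates for some basement membrane genes. Without suspension Col4a1 stood at 454 CPM, Col4a2 at 260 CPM, Col15a1 at 79.8 CPM and Col18a1 at 107 CPM there, and with suspension Col18a1 stood at 35.5 CPM.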

How the results depend on the processing

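No paired analysis was possible because each group has 1 library and no replicate numbers. Of 57 named log2 ratios, 46 kept their sign under every setting that gave a value; 826 of 852 values kept the sign of the main one. The total collagen log2 ratio (-0.88) was -0.95 by median-of-ratios scaling, -0.92 on a total without collagen genes, -1.01 thinned to 2000 UMIs, -0.99 as a mean over cells, -0.90 with at most 10% mitochondrial UMIs, -0.87 without Scrublet calls, -0.94 without cells of uncertain class, -0.90 with the leukocyte level subtracted and -0.78 with classes of equal weight. Settings chosen after seeing the data gave -0.88 in cells of 5000 to 20000 UMIs, and -0.78 and -1.02 with the GC trend of whole transcripts and of their last 1000 bases removed. The cause was not tested for any of these.

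The 11 members at least 2-fold lower in stromal cells were 11 to 15 under the other settings, and the 7 higher were 2 when thinned, 4 in cells of 5000 to 20000 UMIs and 1 with equal weight. Thinning leaves fewer genes measured. The share of all genes past 2-fold was not counted under these other settings. Member counts under them therefore have no background beside them and are descriptions only. Thinned counts 2-fold lower were 6 in adventitial-like, 5 in interstitial-like and 2 in proliferating-like cells; higher ones were 0 in tendon-like, 0 in interstitial-like, 2 in Myoc-Sfrp4-like, 1 in inflammatory-like and 1 in proliferating-like cells. In clusters the lower counts were 5 in interstitial-like, 3 in Myoc-Sfrp4-like and 3 in proliferating-like cells, and the higher ones 3 in adventitial-like, 2 in Myoc-Sfrp4-like and 4 in proliferating-like cells. The higher count in interstitial-like cells was 1 by median-of-ratios scaling, without collagen genes in the total, with 1000 genes per cell, without Scrublet calls and with a score limit of 0.25. In adventitial-like cells it was 3 as a mean over cells, 3 with a limit of 0.25, 2 with the leukocyte level subtracted, 2 in cells of 5000 to 20000 UMIs and 2 with the whole-transcript GC trend removed. It was 1 in inflammatory-like cells with a limit of 1.0. In Myoc-Sfrp4-like cells it was 2 without cells of uncertain class and 2 with the GC trend of the last 1000 bases removed. In tendon-like cells it was 1 in cells of 5000 to 20000 UMIs and 5 with the whole-transcript GC trend removed, where the lower count in proliferating-like cells was 3. In cells of 5000 to 20000 UMIs the lower count in inflammatory-like cells was 5. Signs turned for Col23a1 in interstitial-like cells when thinned (-0.92), as a mean over cells (-0.37) and in clusters (-0.89), for Col22a1 in adventitial-like cells in clusters (1.57), and for Col2a1 in inflammatory-like cells with a limit of 1.0 (0.054) and in cells of 5000 to 20000 UMIs (2.82). The other sign changes among the named ratios were in ratios under 2-fold. They were of Col6a1, Col6a2, Col6a3, Col12a1 and Col22a1 over all stromal cells, of Col12a1 and Col27a1 in adventitial-like and of Col27a1 in Myoc-Sfrp4-like cells. Outside the named ratios, Col1a2 in proliferating-like cells went from -0.19 to 0.007 with the whole-transcript GC trend removed. Some settings left under 50 interstitial-like or proliferating-like cells and gave no value there. Depth limits rare members: 1 UMI is 0.0178 CPM and 0.00976 CPM over all stromal cells.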

Other observations

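The stromal panel includes Sparc and Bgn, which endothelial cells also carry, so endothelial cells were left outside the gates. A looser endothelial gate, chosen after seeing the data, found 62 cells without and 95 with suspension, in which the 6 endothelial markers stood at 5791 and 4210 CPM. In these vessel-lining cells, network chains were 71.6% and 61.9% of collagen UMIs and fibrillar chains 8.22% and 13.5%. Col4a1 stood at 3143 and 1636 CPM, Col4a2 at 1767 and 1028 CPM, Col15a1 at 573 and 419 CPM and Col18a1 at 676 and 414 CPM. All 4 were lower in the tail suspension library, as were the endothelial markers of the same cells, whose part in this was not tested. Col13a1 stood at 14.1 and 17.7 CPM, above both stromal levels, and Col23a1 at 9.37 and 65.3 CPM on 10 and 81 UMIs.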
